A study of Mus musculus with 57 samples.

Results

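S100 proteins are small calcium-binding proteins of vertebrates, and 8 of their mouse genes are described here: S100a8 and S100a9, which mark neutrophils, and S100a1, S100a4, S100a6, S100a10, S100a11 and S100a13, whose transcripts were looked for in the tumour cells themselves. They were chosen by name, with results of these cells already known, and all 8 were found among the 12887 genes of the table of all cells. The cells were RM1 mouse prostate cancer cells of the RM1536 line, which carries the cyan fluorescent protein cerulean (eCFP) and firefly luciferase (luc2). They were stained with the membrane dye PKH26, injected into the heart of C57BL/6 mice and sorted one by one from bone after 13 to 26 days. The dye thins out with each division, so a cell that had kept it (PKH26+) was sorted as dormant and a cell that had lost it (PKH26-) as proliferating.

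The dormant group held 28 cells of 6 mice and the proliferating group 29 cells of 6 mice, with 4 mice (360, 369, 452 and 1185) in both. The series text speaks of 32 proliferating cells, of which 29 were analysed here. Both groups share the tumour line, the host strain, the injection and the dye, and the host keeps its own marrow cells, which the sort could also catch. Dormant cells were parted by their eCFP transcript at a normalised value of 100, a threshold taken from earlier work on these data. The 22 labelled dormant cells (4 mice) had eCFP of 349 to 5256, the 6 low-label dormant cells (4 mice) had 0 to 87.6, and the 29 proliferating cells had 327 to 3230. No cell lay between 87.6 and 327. The low-label cells had little sign of the tumour label: their Luc2 was 2.27 to 230 and their keratin gene Krt8 0 to 9.40, while Luc2 was 1850 to 26410 in labelled dormant and 1994 to 16708 in proliferating cells. They are called by that rule and given no cell type.

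S100 proteins work mostly as dimers that bind a partner protein when calcium rises. S100A8 and S100A9 pair up as calprotectin, which fills the cytosol of neutrophils, withholds zinc and manganese from microbes and signals through Toll-like receptor 4. The other members act mostly inside the cell: S100A4 binds non-muscle myosin and is known from metastasis, S100A6 binds the calcyclin-binding protein, S100A10 and S100A11 bind annexins, S100A13 takes part in the release of fibroblast growth factor 1, and S100A1 is best known from heart muscle.

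All 8 genes lie on mouse chromosome 3 (GRCm38, GENCODE vM21 annotation) and all are protein-coding. S100a1 (90511034 to 90514392, minus strand) and S100a13 (90514435 to 90524581, plus strand) stand head to head with 43 bases between their starts. S100a4 (90603771 to 90606045) and S100a6 (90612882 to 90624181) follow on the plus strand. S100a8 (90668978 to 90670035, plus strand) and S100a9 (90692632 to 90695721, minus strand) are 22597 bases apart. These 6 genes span 184688 bases. S100a11 (93520488 to 93526287) and S100a10 (93555080 to 93564643), both on the plus strand, lie 2824767 bases further along.

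The starts of 4 members are shown to set the pair of neutrophil genes beside a pair of genes that nearly every tumour cell transcribed. The windows run from 250 bases before to 50 bases after the gene start in RefSeq (GRCm38.p6), 5′ to 3′ on the gene's strand, and capitals mark every match of the 4 motifs named below, on either strand.
S100a8, chr3:90668821-90669120, plus strand: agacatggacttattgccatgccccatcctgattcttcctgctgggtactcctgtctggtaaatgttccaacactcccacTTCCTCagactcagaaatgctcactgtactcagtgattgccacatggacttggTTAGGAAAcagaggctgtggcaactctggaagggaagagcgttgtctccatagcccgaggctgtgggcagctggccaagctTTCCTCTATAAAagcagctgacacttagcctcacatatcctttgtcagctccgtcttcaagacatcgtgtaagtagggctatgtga
S100a9, chr3:90695672-90695971, minus strand: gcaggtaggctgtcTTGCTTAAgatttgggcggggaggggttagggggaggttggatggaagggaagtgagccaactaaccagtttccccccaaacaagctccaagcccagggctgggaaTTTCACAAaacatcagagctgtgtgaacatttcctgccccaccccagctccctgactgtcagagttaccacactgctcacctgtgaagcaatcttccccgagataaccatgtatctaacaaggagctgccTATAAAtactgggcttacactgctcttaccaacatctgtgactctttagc
S100a4, chr3:90603520-90603819, plus strand: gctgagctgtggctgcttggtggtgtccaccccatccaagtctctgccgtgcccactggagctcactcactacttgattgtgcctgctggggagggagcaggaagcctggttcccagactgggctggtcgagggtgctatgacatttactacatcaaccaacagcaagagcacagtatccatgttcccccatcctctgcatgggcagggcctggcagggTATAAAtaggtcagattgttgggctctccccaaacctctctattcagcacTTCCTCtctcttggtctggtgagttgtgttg
S100a11, chr3:93520246-93520545, plus strand: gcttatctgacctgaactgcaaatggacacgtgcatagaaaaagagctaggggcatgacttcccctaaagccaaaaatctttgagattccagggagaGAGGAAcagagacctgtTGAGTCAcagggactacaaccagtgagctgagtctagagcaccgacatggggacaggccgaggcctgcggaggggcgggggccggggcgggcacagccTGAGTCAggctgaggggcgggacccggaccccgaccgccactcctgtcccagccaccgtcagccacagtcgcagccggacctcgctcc
The motifs searched were TTNNGNAA for C/EBP factors, GAGGAA for PU.1, TATAAA for the TATA box and TGAGTCA for AP-1. A position is that of the match's first base in the window, with the gene start as 1 and the base before it as −1. S100a8 held TTNNGNAA at −117, GAGGAA at −170 and −36 and TATAAA at −30, the last 2 next to each other. S100a9 held TTNNGNAA at −236 and −130, and its TATAAA began at 1, the annotated start itself. S100a4 held TATAAA at −31 and GAGGAA at 20, and S100a11 held GAGGAA at −153 and TGAGTCA at −136 and −38. The windows of S100a1, S100a6 and S100a13 held none of the 4, and S100a10 had no entry in the table used. Among 32851 promoter windows of the same length, TTNNGNAA was in 40.7%, GAGGAA in 28.3%, TATAAA in 13.6% and TGAGTCA in 5.20%. These are matches of letters only, and no binding was measured.

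Values are BASiCS-normalised reads per gene and cell. Between 945351 and 5306777 reads per cell were recovered, and 2399 to 10509 genes were above 0 per cell. Batches of libraries each held cells of a single state, per the labels, and spike-in features of Mix1 were detected in all 28 dormant cells and no proliferating cell, and those of Mix2 in all 29 proliferating cells and no dormant cell. Mix1 and Mix2 are names of features in the file, and whether 2 mixes were added is not given in the sources used here. The state, the library batch and the name of the spike-in features cannot be told apart. The normalisation used the spike-ins.

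S100a8 and S100a9 reached extreme values in a few cells and were at 0 in most. In labelled dormant cells S100a8 ran from 0 through a median of 0 to 4450 and was above 0 in 7 of 22 cells. In low-label dormant cells the lowest value was 0, the median 6.62 and the highest 378089, with 4 of 6 cells above 0. In proliferating cells the lowest and the median were 0 and the highest 11263, with 13 of 29 cells above 0. The highest values belonged to the low-label group, but the 3 groups overlapped from 0 upwards. As shares with exact Clopper-Pearson 95% intervals, these were 31.8% (13.9% to 54.9%), 66.7% (22.3% to 95.7%) and 44.8% (26.4% to 64.3%). The intervals treat cells as independent and cover counting error only, so they leave out the spread between mice.

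S100a9 had the same shape. It was 0, 0 and 3619 (lowest, median, highest) in labelled dormant cells, 0, 3.46 and 315659 in low-label dormant cells and 0, 0 and 11217 in proliferating cells. The gene was above 0 in 6 of 22, 3 of 6 and 8 of 29 cells of these groups. Both genes were above 0 in 5 labelled dormant, 3 low-label dormant and 7 proliferating cells, and neither in 14, 2 and 15.

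**Figure D1:**
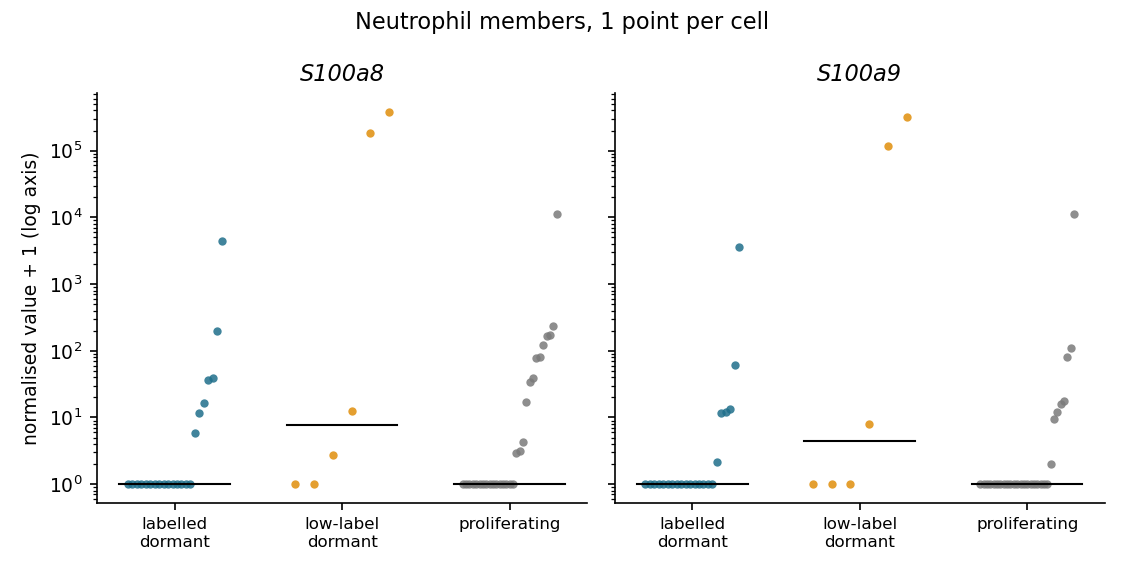
Normalised value + 1 of S100a8 and S100a9 (vertical log axis), 1 point per cell, in 22 labelled dormant, 6 low-label dormant and 29 proliferating cells; the black line is the median. In each panel 2 low-label dormant cells lie at the top, 1 labelled dormant and 1 proliferating cell lie above 1000, and most other cells are at or near 0.

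Only 4 of the 57 cells had S100a8 above 1000, and the same 4 had S100a9 above 1000. Low-label dormant cell 25 (mouse 369) had 378089 for S100a8 and 315659 for S100a9, and both genes together made up 13.8% of its summed gene values. Low-label dormant cell 33, the single dormant cell of mouse 244, had 180886 and 116904. Labelled dormant cell 29 (mouse 369) had 4450 and 3619, and proliferating cell 89 (mouse 1185) had 11263 and 11217. The ratio of S100a8 to S100a9 was 1.20, 1.55, 1.23 and 1.00 in cells 25, 33, 29 and 89. The other 4 low-label dormant cells had 0 to 11.5 for S100a8 and 0 to 6.91 for S100a9.

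Other marrow genes were above 0 in the same 4 cells. A list of neutrophil genes, made of granule genes and others such as the receptor gene Csf3r, had 18 genes in the table. Of these, cell 33 had 18 above 0 (summed value 183724) and cell 25 had 10 (103116). Cell 89 had 11 (9299) and cell 29 had 7 (1371). The defining granule genes Ngp and Camp, an antimicrobial protein and cathelicidin, were 56715 and 22232 in cell 33 but 1767 and 3.13 in cell 25, whose Retnlg, a gene of mature neutrophils, was 86364. In cell 29 Ngp and Camp were at 0 and Retnlg was 289. Lyz2, the lysozyme of granulocytes and macrophages, was 163585 in cell 25 and 179226 in cell 33, and was also 52145 to 188632 over all 6 low-label dormant cells, so a high Lyz2 occurred with S100a8 at 0. Summed within each cell, the 18 neutrophil genes ran from 0 to 1371 in labelled dormant cells (median 17.0). They ran from 0 to 183724 in low-label dormant cells (median 710) and from 0 to 9299 in proliferating cells (median 5.22). In low-label dormant cell 103 the whole sum, 606, was that of Csf3r. Cells 29 and 89 carried the tumour label, with eCFP of 1980 and 1599 and Krt8 of 1758 and 1936. What part RNA of other cells, or a second cell in the well, had in these values was not tested.

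**Figure D2:**
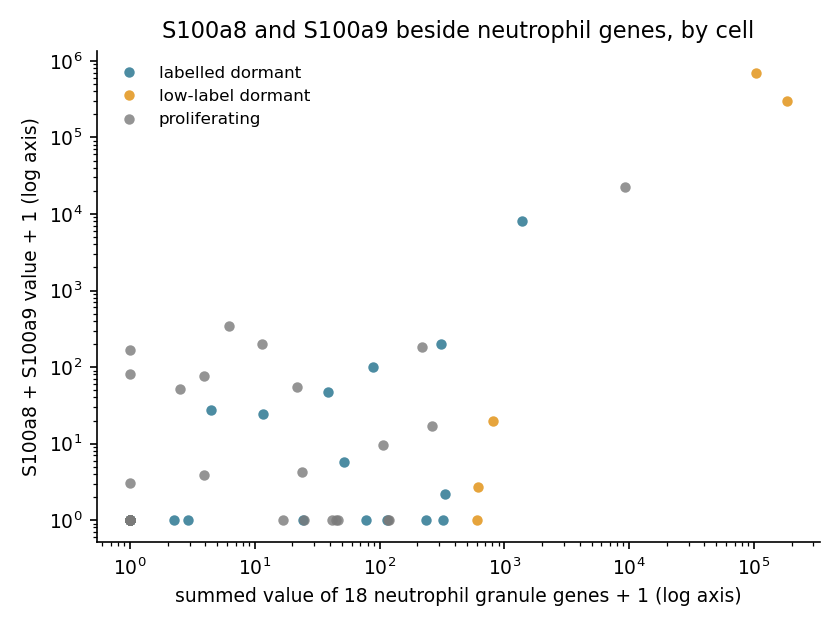
Sum of S100a8 and S100a9 (vertical) against the summed value of the 18 listed neutrophil genes (horizontal, labelled granule genes), both as normalised value + 1 on log axes, 1 point per cell, coloured by group. The 4 cells with S100a8 above 1000 are also the 4 with the highest sums of these neutrophil genes, from 1371 to 183724.

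The 6 other members split into 4 genes with high values and 2 with low ones. Per kilobase of the principal transcript, the median level in labelled dormant cells was 15461 for S100a6, 6157 for S100a4, 5743 for S100a11, 3875 for S100a10, 237 for S100a13 and 160 for S100a1. In proliferating cells the median levels per kilobase were 14467 for S100a6, 7343 for S100a11, 5690 for S100a4, 5533 for S100a10, 216 for S100a13 and 58.3 for S100a1. S100a6 led in both groups, and the order of S100a4, S100a11 and S100a10 below it rests on ranges that overlap almost wholly. In the low-label dormant cells these levels were 2085 for S100a6, 3541 for S100a11, 1234 for S100a4, 990 for S100a10, 287 for S100a1 and 282 for S100a13. By median, S100a1 and S100a13 thus stood higher there than in the other groups, with ranges that overlapped.

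S100a6, calcyclin, was above 0 in every cell. Its lowest, median and highest values were 3370, 11302 and 27544 in labelled dormant cells, 655, 1524 and 8335 in low-label dormant cells and 1709, 10575 and 22240 in proliferating cells. The ranges of labelled dormant and proliferating cells overlapped over most of their length, and 5 of the 6 low-label dormant cells lay below the lowest labelled dormant cell. The sixth was cell 25, which also held the most S100a8. Among proliferating cells the 3 of mouse 360 were low, at 2231 to 4298, and the 2 low-label dormant cells of that mouse were lower still, at 1162 and 1502.

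S100a4, the metastasis-linked myosin binder, was also above 0 in every cell. The lowest, median and highest values were 68.5, 3066 and 9703 in labelled dormant cells, 9.40, 614 and 1882 in low-label dormant cells and 106, 2833 and 9275 in proliferating cells. Among low-label dormant cells, those of mouse 369 had only 9.40 and 21.9, while the 4 labelled dormant cells of the same mouse had 5088 to 9703. Low values also occurred in labelled cells, such as 68.5 and 305 in cells 104 and 105 of mouse 1184 and 106 in the single proliferating cell of mouse 288. Cells 104 and 105 also had 13 and 18 of the 18 listed pan-leukocyte genes above 0, and the cell of mouse 288 had 2. Monocyte and macrophage genes summed to 58322 and 116323 in cells 104 and 105 and to 71.0 in the cell of mouse 288. What part such transcripts had in these S100a4 values was not tested.

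S100a10, the annexin A2 partner p11, was above 1000 in every proliferating cell. It was 718, 2654 and 8848 (lowest, median, highest) in labelled dormant cells, 6.65, 678 and 1820 in low-label dormant cells and 1286, 3790 and 8605 in proliferating cells. Of the labelled dormant cells 19 of 22 were above 1000, of the low-label dormant cells 1 of 6 and of the proliferating cells 29 of 29. The lowest values, 6.65 and 9.40, stood in low-label dormant cells 103 and 25, and both came from fewer than 10 reads.

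S100a11, calgizzarin, had its highest value in the cell with the most S100a8. Its lowest, median and highest values were 547, 2935 and 11624 in labelled dormant cells, 460, 1810 and 28949 in low-label dormant cells and 476, 3752 and 8197 in proliferating cells. The highest value of all 57 cells, 28949, was in cell 25, and cell 33 had 5765. The other 4 low-label dormant cells had 460 to 2434. Reads of S100a11 cannot all be placed with certainty, since the processed pseudogene Gm12854 on chromosome 4 shares 226 stretches of 31 bases with its transcripts, a number that is 47.0% of those in the longest one. Gm12854 itself was above 0 in 56 of 57 cells, at a median of 19.8 and at most 298, far under S100a11. S100a4 shares 272 such stretches with Gm42674, an overlapping annotated transcript on chromosome 3 that was not analysed here. No stretch of 31 bases was shared between any pair of the 8 members.

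**Figure D3:**
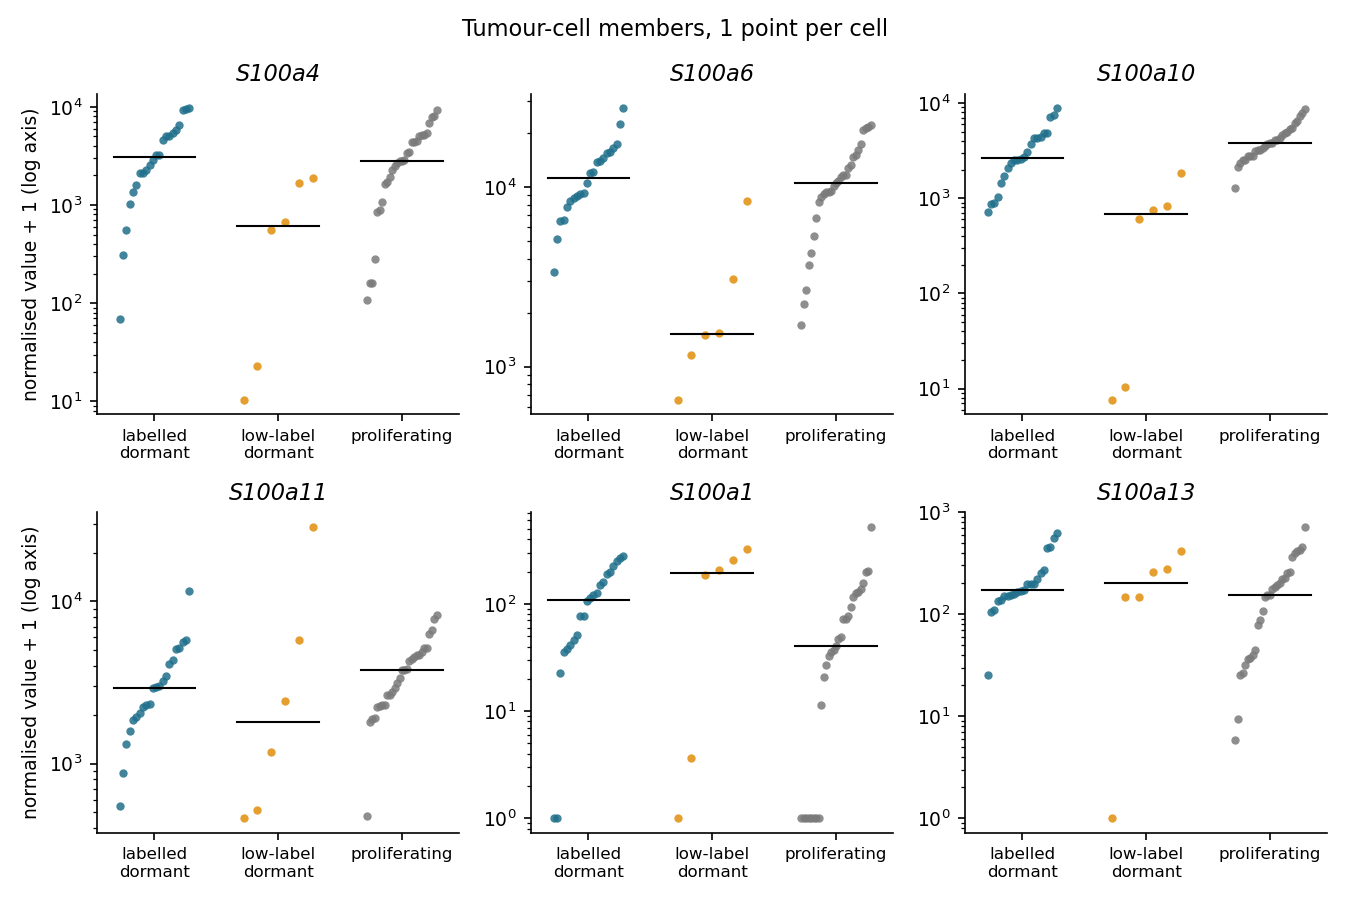
Normalised value + 1 (vertical log axes, each panel with its own scale) of the other 6 members, 1 point per cell, in labelled dormant, low-label dormant and proliferating cells; the black line is the median. S100a4, S100a6 and S100a10 lie lower in most low-label dormant cells, S100a11 has its highest point there, and labelled dormant and proliferating cells overlap in every panel.

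S100a1 and S100a13, the head-to-head pair, were much lower. S100a1 was 0, 109 and 281 (lowest, median, highest) in labelled dormant cells, 0, 194 and 326 in low-label dormant cells and 0, 39.5 and 525 in proliferating cells. It was above 0 in 20 of 22, 5 of 6 and 21 of 29 cells of these groups, and at 100 or more in 12, 4 and 8. The proliferating group thus held both the highest value, in a cell of mouse 452, and 8 of the 11 cells at 0. S100a13 was 24.5, 170 and 622 in labelled dormant cells, 0, 202 and 412 in low-label dormant cells and 4.78, 154 and 721 in proliferating cells. The 3 proliferating cells of mouse 360 had 35.7 to 43.5 and its 2 low-label dormant cells 146 and 257. Across the 51 cells with eCFP of at least 100, the values of the 2 genes had a Pearson correlation of 0.39 on the log2(value + 1) scale, against 0.64 for S100a13 with S100a6 and 0.76 for S100a10 with S100a11. These cells share mice, depth and library batches, so the correlations are descriptions only.

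Whether the members differ between states was asked over mice, because cells of a mouse are not independent. For each mouse and state, log2(value + 1) was averaged over its cells, and limma was fitted to these averages for all genes, with differences taken as dormant minus proliferating. Because zeros are averaged in, a difference is not a fold change within expressing cells. Over all mice, none of the 8 members passed at an adjusted p of 0.05, where limma called 0 of 11843 genes (0%). At an unadjusted p under 0.05 limma had 2 of 8 members, S100a1 and S100a10, against 1126 genes in all (9.51%). The median difference was 0.51 over the members and −0.35 over all genes tested, and 4 members were positive and 4 negative. With cells rescaled by their median of ratios, the median over all genes was −0.13.

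S100a1 averaged 6.28 ± 1.26 in dormant and 3.74 ± 2.15 in proliferating means (SD, n = 6 mice each), a difference of 2.54 (SE 1.18, 95% interval 0.11 to 4.97, limma adjusted p = 0.502). It was higher in the dormant cells of 4 of 4 shared mice, but mouse 360 gave low-label dormant cells only. The highest dormant means, 7.78 in mouse 360 and 7.68 in mouse 244, both came from low-label cells alone. With labelled dormant cells only, S100a1 differed by 2.28 over all mice and was higher in 3 of 3 shared mice. The lowest proliferating mean, 0, was that of mouse 288, which gave 1 cell. S100a10 averaged 10.31 ± 0.94 in dormant and 11.53 ± 0.67 in proliferating means (SD, n = 6 mice each), a difference of −1.22 (SE 0.51, 95% interval −2.27 to −0.17, limma adjusted p = 0.463). The dormant mean was lower in 3 of 4 shared mice. Without the low-label cells, which also leaves out the dormant means of mice 244 and 360, the S100a10 difference was 0.02 over all mice, and in the shared mice it was −0.25. Over all mice the S100a10 difference was −0.72 after rescaling and −0.70 as log2 of the mean value. On recovered reads it was −0.36 by edgeR and −0.38 by DESeq2, and S100a1 differed by 1.28 by edgeR and 1.46 by DESeq2.

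S100a8 averaged 5.03 ± 6.50 in dormant and 2.38 ± 1.92 in proliferating means (SD, n = 6 mice each), a difference of 2.65 (SE 2.08, 95% interval −1.66 to 6.96, limma adjusted p = 0.722). S100a9 averaged 4.37 ± 6.59 in dormant and 1.43 ± 1.65 in proliferating means (SD, n = 6 mice each), a difference of 2.94 (SE 2.10, 95% interval −1.43 to 7.31, limma adjusted p = 0.698). The spread between dormant mice exceeded both differences. Mouse 244 stood highest, at 17.46 for S100a8 and 16.84 for S100a9, on the strength of 1 low-label cell. That cell was of day 26, while the cells of all other mice were of days 13 to 18. Mouse 369, which gave low-label cell 25, was next at 6.60 and 6.50, and its labelled dormant cells averaged 4.36 and 4.44. Without mouse 244 the differences were 0.16 for S100a8 and 0.44 for S100a9. On recovered reads summed per mouse, DESeq2 called S100a8 higher in dormant cells (7.76, adjusted p = 0.00810), and in all 302 genes, while edgeR called neither S100a8 (7.21, adjusted p = 0.782) nor any other gene. Among cells with at least 37 spike-ins above 0, from 2 mice of each state, mouse 244 included, limma called both S100a8 (11.22, adjusted p = 0.000469) and S100a9 (10.99, adjusted p = 0.00403). In cells with fewer spike-ins the differences were −1.57 and −0.92.

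The remaining 4 members lay near or below their own error. S100a6 averaged 12.45 ± 1.32 in dormant and 13.00 ± 0.98 in proliferating means (difference −0.55, SE 0.52) (SD, n = 6 mice each). S100a13 averaged 7.67 ± 0.84 in dormant and 6.62 ± 1.47 in proliferating means (difference 1.05, SE 0.91). S100a4 averaged 10.36 ± 1.17 in dormant and 10.41 ± 2.05 in proliferating means, a difference of −0.05 (SE 0.76). S100a11 averaged 11.31 ± 1.13 in dormant and 11.34 ± 1.27 in proliferating means, a difference of −0.02 (SE 0.59). After rescaling S100a4 was 0.46, S100a11 0.49 and S100a6 −0.038, and S100a6 was 0.24 in the shared mice. No direction is given for any of these genes.

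**Figure D4:**
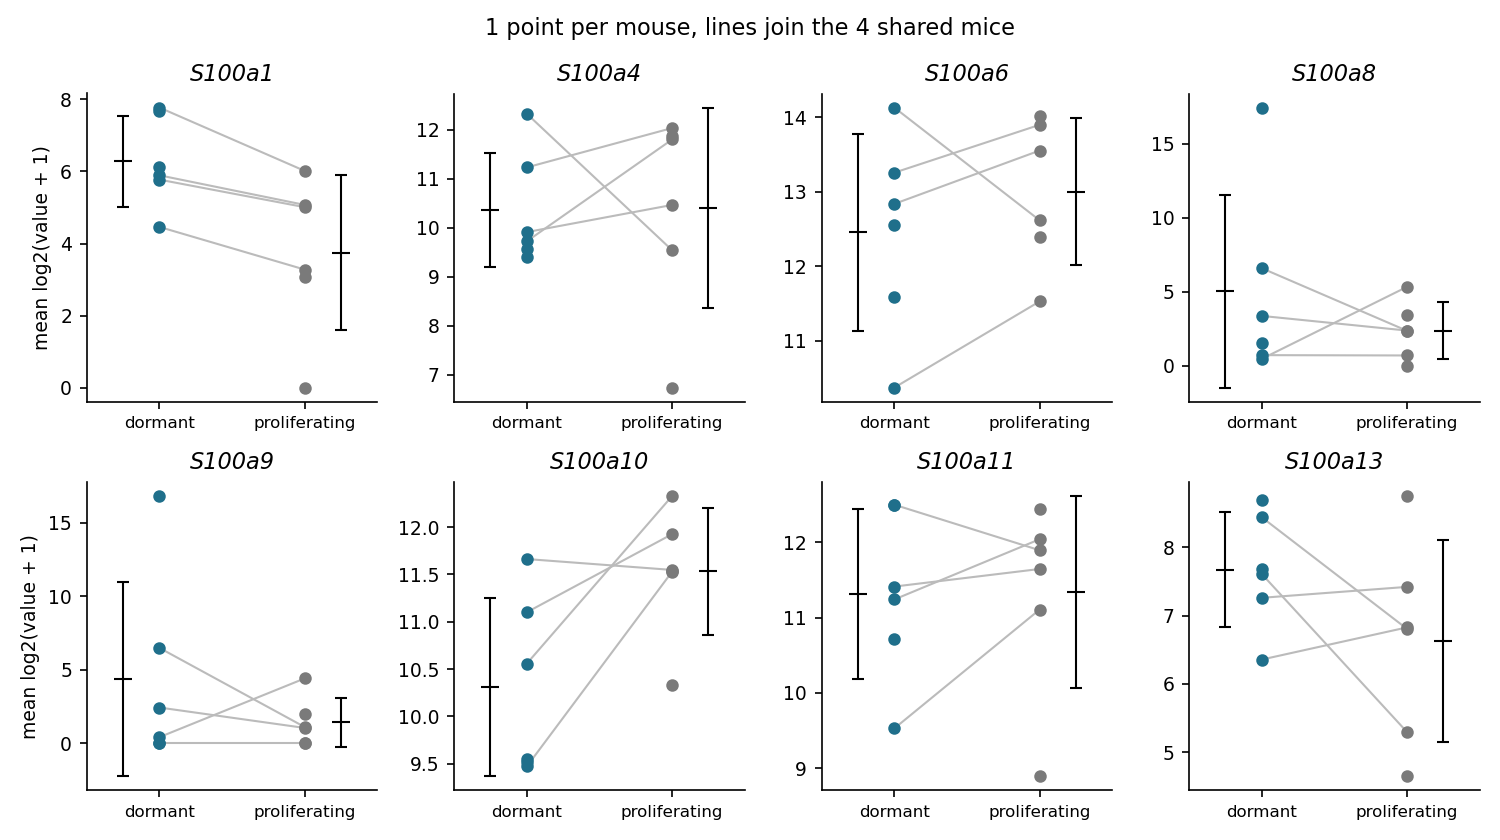
Mean of log2(value + 1) per mouse (vertical, each panel with its own scale) of the 8 members in dormant and proliferating cells, 1 point per mouse, with grey lines joining the 4 mice that gave both states; dashes with bars are the mean ± SD over 6 mice. S100a1 points lie higher in dormant cells in each joined mouse, although mouse 360 gave low-label dormant cells only. Among the S100a8 and S100a9 dormant means mouse 244 stands highest, at 17.46 and 16.84.

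Within the 4 shared mice, with the mouse as a block, 0 of 11565 genes passed by limma (0%), none of the members among them. On recovered reads DESeq2 called 218 genes and edgeR 0, again no member. At an unadjusted p under 0.05 there was 1 of 8 members, S100a10, against 9.24% of all genes. S100a10 averaged 10.70 ± 0.93 in dormant and 11.83 ± 0.38 in proliferating means (SD, n = 4 mice each), a difference of −1.13 (SE 0.50, 95% interval −2.21 to −0.06, limma adjusted p = 0.536). S100a1 differed by 1.13 (SE 1.06), S100a13 by 0.83 (SE 0.95), S100a9 by 0.69 (SE 1.30) and S100a8 by 0.09 (SE 1.35). The differences were −0.16 (SE 0.69) for S100a4, −0.25 (SE 0.45) for S100a6 and −0.50 (SE 0.48) for S100a11. The median difference was −0.03 over the members and −0.72 over all genes.

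In the third comparison only cells with eCFP of at least 100 were kept, 22 dormant cells of 4 mice and 29 proliferating cells of 6 mice. Again limma called 0 of 11595 genes (0%), DESeq2 14 and edgeR 0, with no member among them, and 0 of 8 members had an unadjusted p under 0.05, against 1.96% of all genes. The 95% intervals of the differences show what these data allow. S100a8 averaged 2.53 ± 1.70 (SD, n = 4 mice) in labelled dormant and 2.38 ± 1.92 (SD, n = 6 mice) in proliferating means, a difference of 0.15 (SE 1.15, 95% interval −2.26 to 2.57). S100a9 averaged 1.83 ± 2.04 (SD, n = 4 mice) in labelled dormant and 1.43 ± 1.65 (SD, n = 6 mice) in proliferating means, a difference of 0.40 (SE 1.02, 95% interval −1.73 to 2.52). Without labelled dormant cell 29 these 2 differences were −0.50 and −0.22, and without proliferating cell 89 both were positive, so leaving out 1 cell turned their sign.

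S100a10 averaged 11.55 ± 0.55 (SD, n = 4 mice) in labelled dormant and 11.53 ± 0.67 (SD, n = 6 mice) in proliferating means, a difference of 0.02 (SE 0.42, 95% interval −0.86 to 0.90). S100a6 differed by 0.52 (SE 0.41, 95% interval −0.35 to 1.39) and S100a11 by 0.17 (SE 0.56, 95% interval −0.998 to 1.33). The wider ones were S100a1 at 2.28 (SE 1.28, 95% interval −0.40 to 4.96; 0.68 by edgeR and 0.75 by DESeq2 on recovered reads), S100a13 at 1.12 (SE 0.98) and S100a4 at 0.94 (SE 0.88). Every limma adjusted p of the members was 1.00. All 8 differences were positive, against 54.5% of all genes tested, with a median of 0.46, where the median of every gene tested was 0.09. With the mouse as a block, S100a8 was −0.63, S100a10 −0.25 and S100a11 −0.23, so no shared direction is read from the 8 signs. The 3 comparisons share the proliferating cells, so their values stand side by side and do not support each other.

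**Figure D5:**
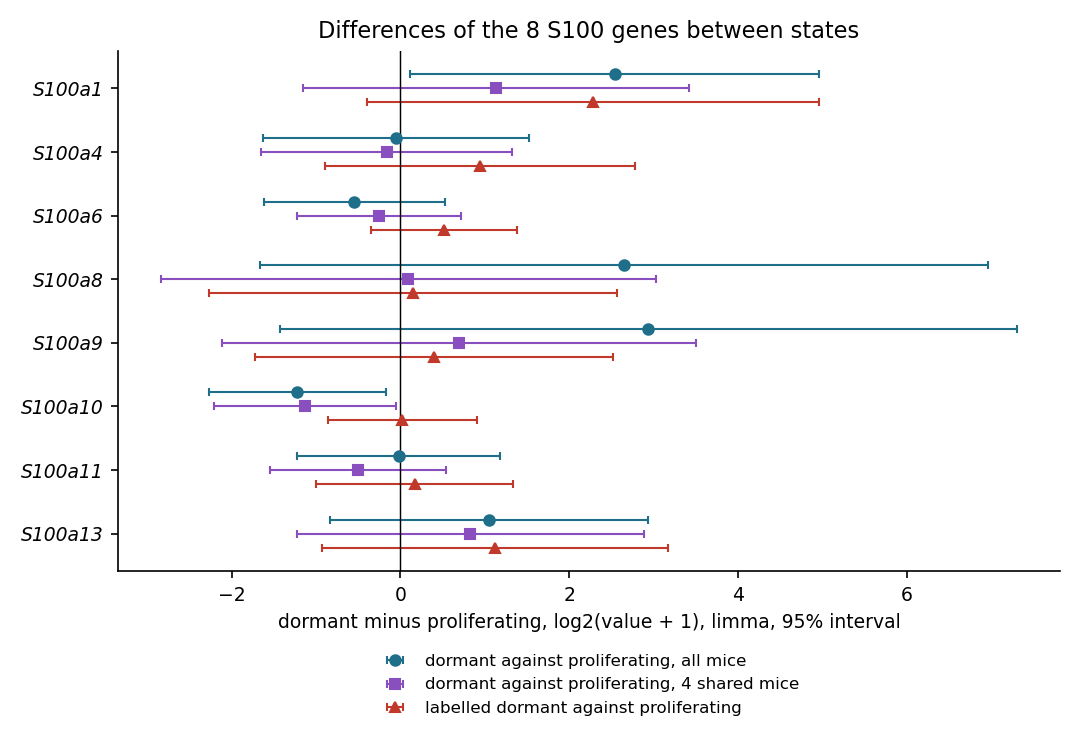
Difference of the 8 members, dormant minus proliferating in mean log2(value + 1) (horizontal), with limma's 95% intervals, in all mice (circles), in the 4 shared mice (squares) and with labelled dormant cells only (triangles). The intervals of S100a1 over all mice and of S100a10 over all mice and in the shared mice leave out 0, and the other 21 intervals include it.

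Marker lists were measured beside these values, and limma called 0 genes of any list. Over all mice 36.9% of all genes tested had positive differences. Of the tested genes, 17 of 17 pan-leukocyte, 13 of 13 monocyte and macrophage and 11 of 11 neutrophil genes were positive. Their medians were 4.61, 3.98 and 2.45. Low-label cells, whose median sums were the highest for all 3 lists, counted towards the filter, which 11 of the 18 neutrophil genes passed. Without low-label cells 16 pan-leukocyte, 11 monocyte and macrophage and 9 neutrophil genes passed it. Counts of positive genes that include low-label cells are therefore no test of these lists. In the shared mice 16 of 17, 12 of 12 and 7 of 10 were positive. Medians there were 3.29, 3.11 and 0.25. The 10 cell cycle genes were all negative over all mice, with a median of −3.66. The 5 tumour identity genes (eCFP, Luc2, Krt8, Krt18 and Vim) were all negative, with a median of −3.35. This list holds eCFP, the value that set the low-label cells apart, so its counts are no separate sign of tumour identity. With labelled cells only, 54.5% of all genes were positive. The medians were 1.38 for pan-leukocyte, 1.90 for monocyte and macrophage, 0.12 for neutrophil and −2.34 for cell cycle genes. Of the tested neutrophil genes 5 were positive and 4 negative, and of the monocyte and macrophage genes 10 and 1. Of the tumour identity genes, eCFP by which these cells were kept included, 4 of 5 were positive, with a median of 0.24. The part of these lists in the S100 values was not tested.

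Of the partners of S100 proteins, 9 of 12 genes looked for were in the table and 0 passed limma's test in any comparison. Anxa2, the annexin bound by S100A10, was 2759 to 17705 in labelled dormant cells, 10.6 to 19934 in low-label dormant cells and 4727 to 13432 in proliferating cells. Its difference over all mice was −0.65 (SE 0.36). Anxa1, the annexin bound by S100A11, differed by −0.28 (SE 0.47) and Cacybp, the S100A6 partner, by −0.14 (SE 0.83) over all mice. In the shared mice Anxa1 differed by −1.13 (SE 0.42, limma adjusted p = 0.536) and Cacybp by −1.36 (SE 0.63, limma adjusted p = 0.541). Tlr4, the receptor of S100A8 and S100A9, differed by 0.58 (SE 1.08). Cybb, of the phagocyte oxidase that calprotectin assists, had the largest of these differences at 5.42 (SE 1.63, limma adjusted p = 0.437) over all mice and 2.13 (SE 0.83) with labelled cells only.

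Only 4 of 10 other S100 family genes looked for were in the table, and all 4 were low. S100a3 was above 0 in 15 of 22 labelled dormant, 0 of 6 low-label dormant and 13 of 29 proliferating cells, at up to 135 in labelled dormant and 100.1 in proliferating cells. For 0 of 6 cells the exact Clopper-Pearson 95% interval reaches 45.9%, and the limit of 3 counts out of 6 is 50%. In labelled cells it averaged 3.93 ± 0.74 (SD, n = 4 mice) in dormant and 1.61 ± 1.44 (SD, n = 6 mice) in proliferating means, a difference of 2.32 (SE 1.01, limma adjusted p = 1.00). Its difference was 0.67 (SE 1.00) over all mice and 0.13 (SE 1.15) in the shared mice. S100a16, S100a5 and S100a7a were above 0 in 9, 3 and 2 labelled dormant cells, in 0 low-label dormant cells each and in 12, 6 and 6 proliferating cells.

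The genes most like each member were named by the highest Pearson correlation of log2(value + 1) over all 57 cells, with the other 7 members left out of the ranking in either set of cells. Those of S100a8 were Retnlg (0.84), Il1f9 (0.83) and Lcn2 (0.82), and those of S100a9 Retnlg (0.93), Il1f9 (0.92) and Ly6g (0.91). The pair itself had 0.89 over all cells and 0.80 over the 51 labelled cells. S100a10 went with the ribosomal protein genes Rpl36a (0.93), Rpl29 (0.92) and Rpl22 (0.92), S100a6 with Ifitm1 (0.80), Crabp1 (0.76) and Rps6 (0.74), and S100a4 with Gm4735 (0.73), Eno1 (0.72) and Park7 (0.72). S100a11 had Gm12854, its pseudogene, at 0.85 and next Hist1h2bc at 0.62. S100a13 was closest to Ndufv3 (0.72) and S100a1 to Itgb1bp1 (0.66). Over the 51 cells with eCFP of at least 100 the first genes were Ly6c2 for S100a8 (0.72), Retnlg for S100a9 (0.85), Rps3a1 for S100a10 (0.75), Atpif1 for S100a6 (0.72), Ifitm1 for S100a4 (0.75), Gm12854 for S100a11 (0.81), Ifitm2 for S100a13 (0.61) and Ctdsp2 for S100a1 (0.69). Each named gene was the highest, or among the 3 highest, of 11835 (all cells) or 11587 (labelled cells) genes, and the cells share mice, depth and batches.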

How the data were processed

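Single cells were profiled by full-length RNA-seq (SMARTer cDNA, Nextera XT libraries, ERCC spike-ins), per the labels' protocols. STAR, RSEM and the builds GRCm38 and mm10 are named in the submitters' processing notes, with no versions. The deposited values are a signal that is never negative: reads per gene and cell that the authors normalised with BASiCS, per the series text. Every nonzero gene value (100%) was, within 0.01 reads, a whole number of the smallest value in its cell, so reads could be recovered. Of the IDs, 12850 were matched to symbols and 35 genes kept their ID.

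The mouse was the replicate, by the labels, though nothing says whether mice were treated in separate experiments. The mean of log2(value + 1) per mouse and state entered limma 3.58.1 (trend, robust) for genes above 0 in at least 6 cells, with Benjamini-Hochberg adjustment. The labels tie cells of both states to the same mouse. The paired means' deviations correlated at 0.34, 0.17, 0.003 and −0.006 in mice 369, 452, 360 and 1185. Low-label cells were chosen by a measured value and entered no test of their own. A cell was called leukocyte-rich when 5 or more of 18 pan-leukocyte genes were detected.

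Alternatives were edgeR 4.0.16 and DESeq2 1.42.0 on the recovered reads, summed by mouse and by state, other pseudocounts, filters, averaging and scaling, other cells, and leaving out each mouse. The named genes were the 8 members, other S100 genes, up to 4 genes per list and the 3 genes most like each member, not all reported here. Members and lists were chosen with earlier results of these data known. Scripts were tested on simulated data. Figures were drawn with matplotlib 3.10.9, tables made with pandas 2.3.3 in Python 3.11.15, intervals with scipy 1.17.1, and models fitted in R 4.3.3.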

Additional observations from a re-analysis of the deposited data

Results flagged for a closer look

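Of 32 groups of 4 to 10 values examined, 2 held a value far from the others, and chance gives about 1 in 20. The mean log2 value of S100a8 in dormant cells was 17.46 in mouse 244, against 0.47 to 6.60 in the other 5 mice. It rests on 1 low-label cell, of day 26, with eCFP of 2.15 and 18 of 18 listed neutrophil genes above 0. S100a13 on the log2(value + 1) scale was 0 in cell 25, while the other 5 low-label dormant cells had normalised values of 146 to 412. That cell also had 378089 for S100a8.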

How the results depend on the processing

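limma called 0 genes in each of the 3 comparisons, and edgeR also 0 (783, 251 and 279 at an unadjusted p under 0.05). DESeq2 called 302 (294 higher, 8 lower), 218 (140 higher, 78 lower) and 14 (13 higher, 1 lower) genes over all mice, in the shared mice and with labelled cells only. Cells with at least 37 spike-ins gave 22 over all mice, and leaving out leukocyte-rich cells gave 1 in the shared mice. Leaving out each mouse gave 0 to 0. Of 490 member values under the alternatives, 74 changed sign, none of them past the threshold, and 3 passed it (S100a8 with DESeq2, and S100a8 and S100a9 with at least 37 spike-ins). The causes were not tested.

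Over all mice, S100a4 was 0.35 as log2 of the mean value, 0.46 rescaled, 1.32 without leukocyte-rich cells, 0.94 without low-label cells and 0.11 with at least 37 spike-ins. S100a11 was 0.15, 0.49, 0.0065, 0.17 and 2.23 under the same 5, 0.32 with edgeR and 0.38 with DESeq2. S100a6 was 0.38 without leukocyte-rich and 0.52 without low-label cells, and S100a10 0.021 without low-label cells. S100a8 was −0.31 in mice with at least 2 cells of the state and −1.57 with under 37 spike-ins, where S100a9 was −0.92. In the shared mice S100a8 was −0.038 with a pseudocount of 10, −0.28 as log2 of the mean value, −0.90 with edgeR, −0.35 with DESeq2 and −0.63 without low-label cells. S100a4 there was 0.17 as log2 of the mean value, 0.32 rescaled, 0.17 with edgeR, 0.18 with DESeq2, 0.46 without leukocyte-rich and 0.93 without low-label cells, and S100a6 0.24 rescaled and 0.33 without low-label cells.

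With labelled cells only, S100a9 was −0.14 as log2 of the mean value, −0.24 with edgeR and −0.023 with DESeq2, S100a8 −0.014 with edgeR, and S100a11 −0.045 with edgeR, −0.037 with DESeq2 and −0.61 at an eCFP of at least 1000. S100a10 was −0.0071 without leukocyte-rich cells, −0.051 at an eCFP of at least 10 and −0.27 at 1000. With the mouse as a replicate block, S100a8 was −0.63, S100a10 −0.25 and S100a11 −0.23, and the block changed no call in any comparison.

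Leaving out each of the 8 mice in turn, S100a4 ranged from −0.78 to 0.36 and S100a11 from −0.51 to 0.29 over all mice. In the other 2 comparisons cells 29 and 89 (chosen after seeing the data) were also left out. In the shared mice S100a4 ranged from −1.15 to 0.48, S100a6 from −0.84 to 0.052, S100a8 from −1.29 to 1.75 and S100a9 from −0.87 to 2.26. With labelled cells S100a8 ranged from −0.50 to 1.43, S100a9 from −0.54 to 1.46, S100a10 from −0.22 to 0.25 and S100a11 from −0.32 to 0.39. S100a8 and S100a9 had too few cells above 0 to be tested without leukocyte-rich cells. Each mean rests on 1 to 13 cells.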

Other observations

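Labelled cells could be parted by their other leukocyte transcripts. Among labelled dormant cells, S100a8 was above 0 in 7 of 11 leukocyte-rich cells and in 0 of the 11 others. Among proliferating cells it was above 0 in 8 of 12 leukocyte-rich cells and in 5 of the 17 others, where its highest value was 119. S100a9 followed, with 5 of 11 and 1 of 11 labelled dormant cells and 5 of 12 and 3 of 17 proliferating cells. The median of S100a6 was 13879 in leukocyte-rich and 9234 in other labelled dormant cells, and 10391 and 10761 in proliferating cells. S100a4 had medians of 2890 and 3242 in labelled dormant cells and of 3083 and 2833 in proliferating cells, so S100a8 and S100a9 were above 0 mostly in cells with other leukocyte transcripts while S100a4 and S100a6 were high in both kinds. These are values of cells, several from each mouse, and the difference between the kinds of cell was not tested.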
